A study of Rattus norvegicus with 36 samples.

Results

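The genes described here are 78 of the 14984 genes in the authors' table of expressed protein-coding genes from rat precision-cut lung slices. They are genes that were well expressed at time 0, fell at least 4-fold in untreated slices by time 72, and then differed little between the treatment groups. They were chosen from measured values, as means of log2 CPM (counts scaled to library size, the unit of the deposited table) over the 6 libraries of each group. A gene had to have a time-0 mean of 2 or more and a culture difference (untreated at 72 minus untreated at 0) of -2 or lower. The difference between TGFb and untreated slices at 72, and that between each drug with TGFb and TGFb alone, had to be under 0.5 in absolute size. All 6 group means entered this choice, so every difference between groups below is a description, and none of them tests the choice.

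Precision-cut slices are thin sections of living lung tissue that are maintained in culture, and the study set out to characterize them as a model for judging anti-fibrotic drugs. RNA was sequenced from 36 libraries, 6 in each of 6 groups: untreated slices at time 0, untreated slices at 72, slices with TGFb at 72, and slices at 72 with TGFb and Pirf, TGFb and Nint, or TGFb and Sora. The labels give lung as the tissue and no strain, age, dose or unit of time, and the names pirfenidone, nintedanib and sorafenib for Pirf, Nint and Sora come from outside the labels. No label says whether the 6 replicates came from separate animals, so every interval and p-value reflects variation among these libraries alone, and that variation may be technical. The deposited tables list Ensembl IDs without gene names, and 0 of the 78 IDs could be paired with a name from the reference table used here. The functions of these genes, their marker status and the cell types they come from are therefore not described, and IDs are printed only for single genes on which a result turns.

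As background, a slice keeps the cell types of the lung in place but is cut off from blood flow, from circulating hormones and from breathing movements. Transcripts of differentiated cells commonly decline in explanted tissue, through death or departure of cells, dilution by cells that survive or divide, and lower transcription. In bulk RNA, fewer cells of a type and less RNA per cell cannot be told apart. TGFb is the growth factor that drives myofibroblast formation and matrix deposition in fibrosis. Pirfenidone and nintedanib are drugs for lung fibrosis, and nintedanib and sorafenib both inhibit receptor tyrosine kinases.

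Time-0 replicate 3 stood apart from the other 5 time-0 libraries. Over the 184 genes with a time-0 mean of 2 or more and a culture difference of 2 or higher, it lay a median of 0.74 above the time-0 group mean in log2 CPM, and the other 5 libraries lay between -0.29 and 0.17. Over the 78 genes its median deviation was -0.17. Libraries held 15886957 to 23255558 counts at time 0 and 18971559 to 32933011 at 72. The set size, culture difference, separation of libraries, summed CPM and time-0 spread are also given without replicate 3. Other values that use the time-0 mean include it.

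Of the 10981 genes with a time-0 mean of 2 or more, 383 had a culture difference of -2 or lower, and the 78 were the 20.4% of these that stayed within all 4 treatment limits. Without time-0 replicate 3 there were 409 such genes, of which 85 (20.8%) stayed within the limits. Among the 10598 genes of like time-0 minimum that were not lost in culture, 7550 (71.2%) stayed within the same 4 limits. Lost genes were also lower at 72. Within the same range of untreated means at 72, the shares were 16.8% of 125 lost genes and 29.6% of 311 others between 0 and 2 log2 CPM. They were 24.7% of 89 and 63.4% of 2399 between 2 and 4, and 29.3% of 58 and 76% of 4804 between 4 and 6. At 6 or more they were 32.3% of 31 and 74.1% of 3084. In each of these 4 ranges the share among lost genes was the smaller of the pair, which is a description with no test. Below 0 log2 CPM, where no other gene with this time-0 level can lie without being lost, 8 of 80 lost genes (10%) stayed within the limits.

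The other 305 lost genes passed over at least 1 limit. The Pirf limit was passed by 238 of them, 170 higher and 68 lower than with TGFb alone. The TGFb limit was passed by 177, of which 59 were higher and 118 lower than untreated slices at 72. The Sora limit was passed by 129 (89 higher, 40 lower) and the Nint limit by 84 (33 higher, 51 lower). For 58 genes the Pirf limit was the only one passed, against 26 for TGFb, 10 for Sora and 9 for Nint. Pirf was thus the most frequent single limit, though only 103 of the 305 genes passed just 1 limit. The same order held over all genes tested with edgeR at an adjusted p under 0.05. There 51.5% were called for Pirf, 26.4% for TGFb, 15.4% for Sora and 3.09% for Nint. These shares count calls, whereas the limits count differences of 0.5 or more. With edgeR, 140 of the 305 genes were called higher and 53 lower for Pirf, and 42 and 93 for TGFb. The calls were 52 and 21 for Sora, and 2 and 17 for Nint. The order of calls is thus not particular to lost genes. Genes beyond each limit were not counted over all genes, so this is not known for the order by limits.

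**Figure D1:**
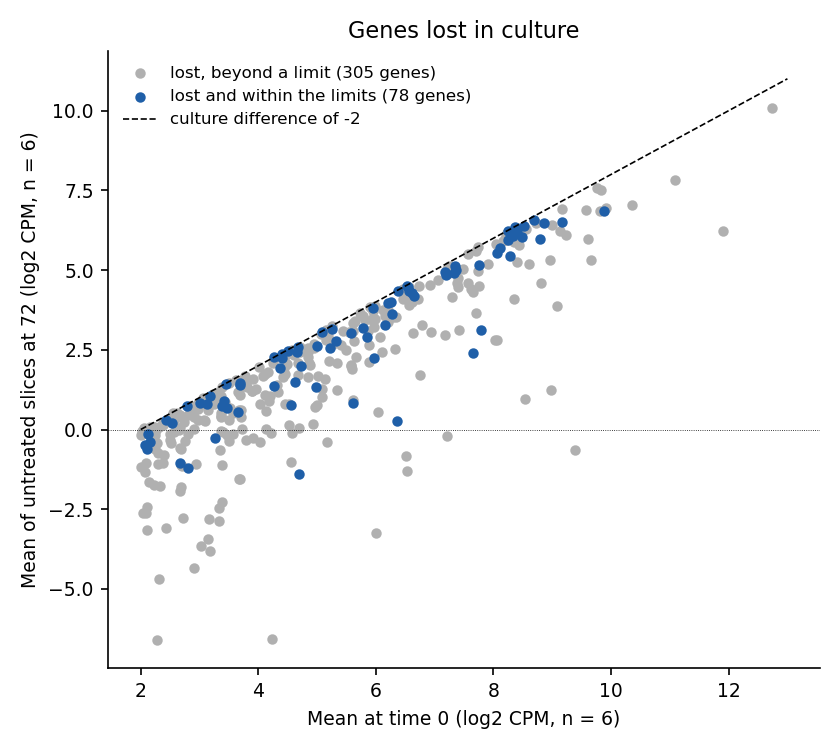
Mean log2 CPM at time 0 (horizontal axis) and in untreated slices at 72 (vertical axis) of the 383 genes lost in culture, 78 within all 4 treatment limits (blue) and 305 beyond a limit (grey); the dashed line marks a culture difference of -2 and the dotted line 0 log2 CPM. Of the blue points, 64 lie within 1 log2 unit below the dashed line and 6 lie 2 or more below it, with time-0 means of 2.08 to 9.87; below the dotted line 72 of the 80 points are grey.

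Time-0 means of the 78 genes ranged from 2.08 to 9.87 log2 CPM with a median of 5.599, and 15 genes had a mean of 8 or more. These are levels scaled to library size without correction for gene length, so they do not rank genes by transcript number. In untreated slices at 72 the means ranged from -1.39 to 6.84 with a median of 2.71. The culture difference had a median of -2.39 (quartiles -2.78 and -2.20), beside a median of 0.08 over all 14984 genes. Without time-0 replicate 3 the median over the same 78 genes was -2.46. The highest difference was then -1.90, so not all of the 78 still met the limit of -2. On the linear scale the genes kept a median of 19.1% of their time-0 level, with a range of 1.48% to 25%. Most of them lay near the limit: 64 had a culture difference between -2 and -3, 8 between -3 and -4, and 6 of -4 or lower. Of the 305 genes beyond a limit, 59 had a difference of -4 or lower, and their median was -2.76.

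The fall was seen in every library. For each of the 78 genes, all 6 time-0 libraries lay above all 6 untreated libraries at 72, as they did for 22.1% of the 14984 genes. For 77 of the 78, all 6 time-0 libraries lay above all 30 libraries at 72, as they did for 15.2% of the 14984 genes. The remaining gene overlapped by 0.26 log2 CPM, and without time-0 replicate 3 the number was 78 of 78. The gap between the lowest time-0 library and the highest library at 72 had a median of 1.37 and reached 4.50. With edgeR's quasi-likelihood test, all 78 were called lower at 72 at an adjusted p under 0.05, where 35.3% of the 15644 genes tested were called lower. The rule required a fall of this size, so nothing is read from these counts.

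The summed CPM of the 78 genes give their joint level after TMM scaling, which is not the same as their share of the counts. The sum was 8862, 9552, 8035, 9591, 10350 and 11594 in time-0 replicates 1 to 6, with a mean of 9664 ± 1225 (SD, n = 6). Replicate 3 was the lowest, and without it the mean was 9990 ± 1040. In untreated slices at 72 the sum lay between 1558 and 1807, with a mean of 1659 ± 98.7. It was 1721 ± 54.7 with TGFb, 1828 ± 75 with Pirf and TGFb, 1764 ± 54.7 with Nint and TGFb, and 1756 ± 89.3 with Sora and TGFb. All 30 libraries at 72, at 1911 or less, lay below the lowest time-0 library. As a share of all counts the set fell from 0.944% ± 0.11 at time 0 to 0.167% ± 0.00628 in untreated slices at 72. The share was 0.166% with TGFb, 0.195% with Pirf and TGFb, 0.169% with Nint and TGFb, and 0.181% with Sora and TGFb. Slices with TGFb alone thus lay above untreated slices at 72 in mean summed CPM but not in mean share of counts.

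**Figure D2:**
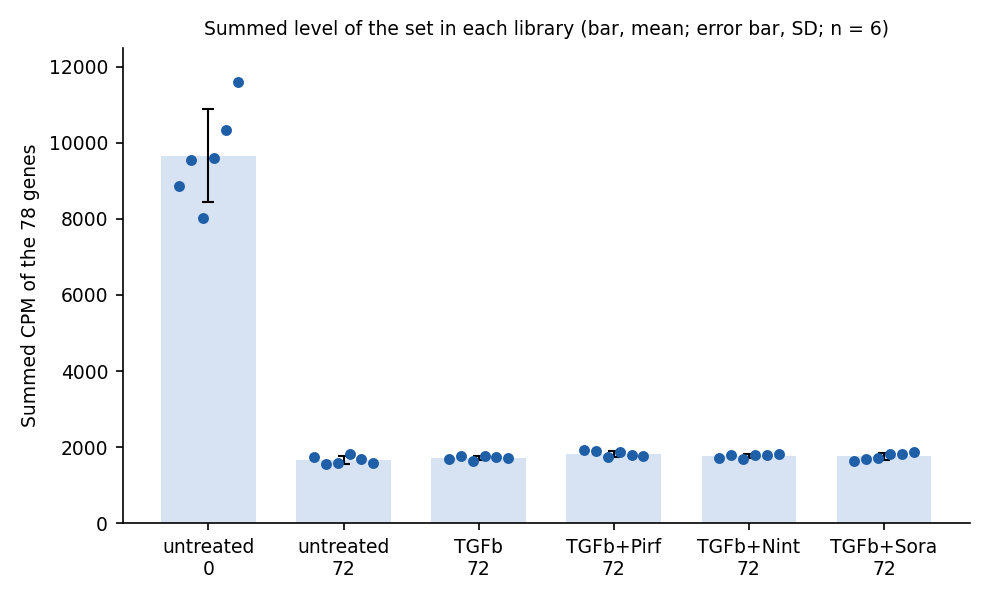
Summed CPM of the 78 genes in each of the 36 libraries, by group; points are libraries in order of replicate number, bars are means and error bars are SDs (n = 6). The time-0 libraries sit between 8035 and 11594, and all libraries at 72 sit between 1558 and 1911.

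ENSRNOG00000021318 had the highest time-0 mean of the set. Its log2 CPM at time 0 were 9.58, 9.83, 9.62, 9.86, 10.11 and 10.25 in replicates 1 to 6. In untreated slices at 72 the lowest, median and highest values were 6.70, 6.79 and 7.15, and with TGFb they were 6.48, 6.72 and 6.96. The time-0 libraries lay above all others by more than 2 log2 units, and untreated and TGFb libraries overlapped. With Pirf and TGFb the values were 6.97, 7.24 and 7.37, so that the lowest Pirf library lay just above the highest with TGFb alone. With Nint and TGFb they were 6.51, 6.59 and 6.81, and with Sora and TGFb 6.53, 6.66 and 7.04. The log2 fold change of Pirf against TGFb alone was 0.46 (SE 0.10, 95% interval 0.25 to 0.66), which is inside the limit although the 6 and 6 libraries did not overlap. For Nint it was -0.12 (interval -0.33 to 0.09) and for Sora 0.00 (interval -0.20 to 0.21). This gene made up 9.79% ± 0.732 of the summed CPM of the 78 genes at time 0 and 6.92% ± 0.472 in untreated slices at 72.

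ENSRNOG00000026061 had the most negative culture difference, -6.08. Another member, ENSRNOG00000047321, had -6.07, and with edgeR it fell further, at -6.19 beside -5.88. The first rank is thus a near tie that turns with the method. At time 0 its log2 CPM were 5.32, 4.73, 4.33, 4.81, 4.33 and 4.61 in replicates 1 to 6, from 316 to 847 counts. In untreated slices at 72 they were -1.33, -3.28, -0.70, -2.06, -0.82 and -0.17, from 2 to 19 counts. The lowest, median and highest values were -2.92, -1.38 and -0.65 with TGFb alone, -2.21, -1.85 and -1.22 with Pirf and TGFb, -3.48, -1.60 and -0.94 with Nint and TGFb, and -1.80, -1.15 and -0.52 with Sora and TGFb. All 5 groups at 72 overlapped. At these counts the differences between treatments are loosely bounded: the 95% interval of the log2 fold change was -1.03 to 0.50 for TGFb, -1.19 to 0.40 for Pirf, -0.996 to 0.59 for Nint and -0.36 to 1.11 for Sora. The intervals for TGFb, Pirf and Sora include changes of 2-fold, so a change of that size could not be told from none at this depth.

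**Figure D3:**
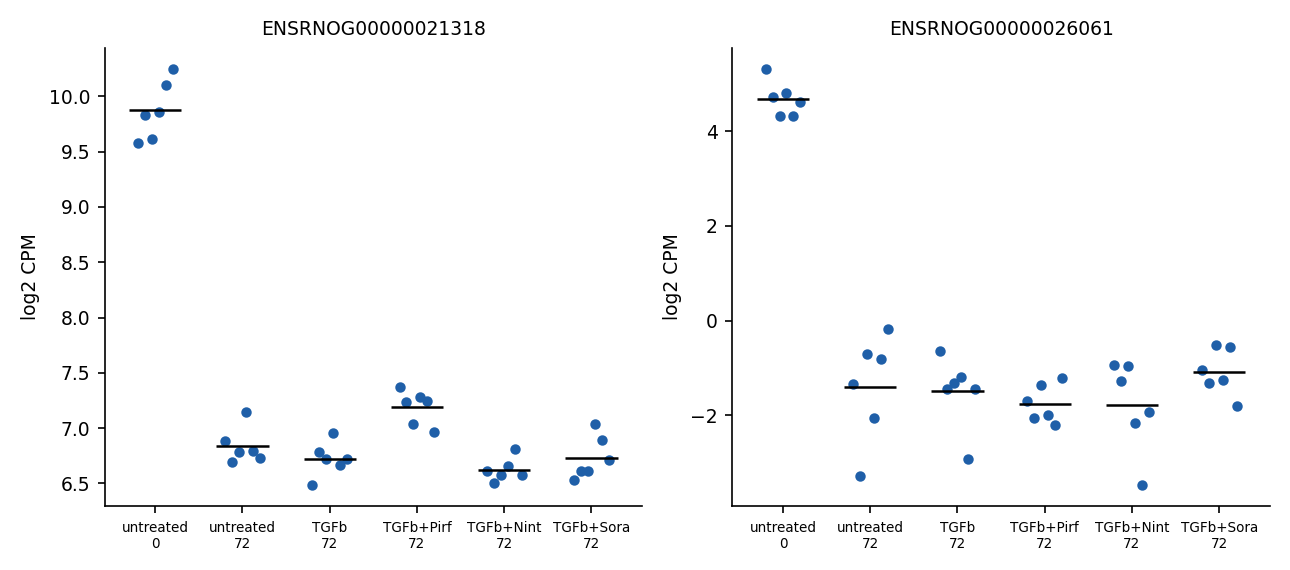
Log2 CPM of ENSRNOG00000021318 (left) and ENSRNOG00000026061 (right) in each of the 36 libraries, by group; points are libraries in order of replicate number and lines are group means (n = 6). On the left the Pirf libraries lie between 6.97 and 7.37, above those with TGFb alone, and on the right the 5 groups at 72 overlap.

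The means of the 4 treatment differences were small by choice, and the data bound them to different degrees. With edgeR, 12 of the 78 genes were called for TGFb (9 higher, 3 lower), where 26.4% of the 15644 genes tested were called (14% higher, 12.4% lower). The 15644 genes are a wider class than the set was drawn from: 14480 are in the coding table, and they have any time-0 level. For Pirf 21 were called (18 higher, 3 lower), where 51.5% of all genes were (25.1% higher, 26.4% lower). For Sora 4 were called (3 higher, 1 lower; background 15.4%), and for Nint 2 were called (1 higher, 1 lower; background 3.09%). Without scaling factors, on total counts alone, the TGFb calls were 3 higher and 6 lower and the Pirf calls 28 higher and 2 lower, with shifts of -0.07 and 0.15 in the median log2 fold change of all genes. For Sora the calls were then 9 higher and 0 lower, with a shift of 0.10. The direction of the TGFb calls thus turned with the scaling, and that of the Pirf and Sora calls did not.

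Of the 78 genes, 49 were called in none of the 4 comparisons, 20 in 1, 8 in 2 and 1 in 3. The share called in none was 62.8% of the set and 34.3% of all genes tested, and the limits of the rule favour the first. The word untouched therefore does not hold for 29 of them at this threshold, and a gene that was not called is not shown to be unchanged. The 95% interval lay within ±0.5 for 32 genes with TGFb, 26 with Pirf, 41 with Nint and 38 with Sora, and for 12 genes in all 4 comparisons. It lay within ±1 in all 4 for 71 genes. Such intervals were not counted over all genes tested, and the rule favours small estimates. Whether these counts are few or many is therefore not known. The 12 genes had a median of 4.49 log2 CPM in untreated slices at 72, and the other 66 had 2.39. Standard errors of the TGFb log2 fold change ranged from 0.06 to 0.38 over the set with a median of 0.16, beside 0.12 over all genes tested.

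**Figure D4:**
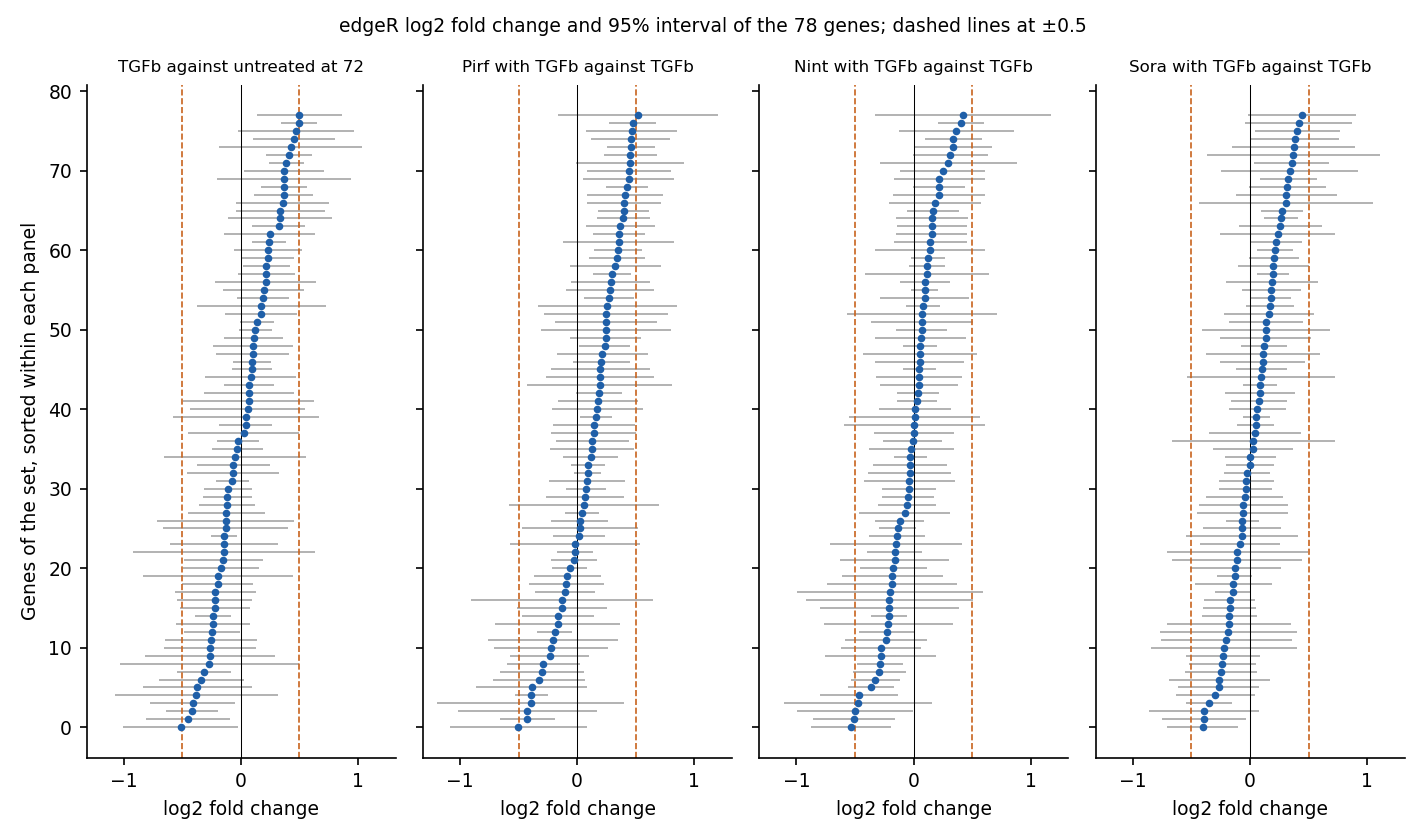
edgeR log2 fold change (point) and 95% interval (line) of each of the 78 genes for TGFb against untreated slices at 72 and for each drug with TGFb against TGFb alone, sorted within each panel; dashed lines mark ±0.5. The points stay near or inside the dashed lines by choice, and many intervals cross them: 32, 26, 41 and 38 genes have intervals within the lines for TGFb, Pirf, Nint and Sora.

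Within the limits, the values were not centred alike in the 4 comparisons, which share the TGFb-alone libraries. The median log2 fold change of the set was 0.04 for TGFb, 0.15 for Pirf, 0.01 for Nint and 0.05 for Sora, beside medians of 0.02, 0.00, -0.02 and 0.00 over all genes tested. Without scaling factors the medians of the set were -0.02, 0.30, 0.02 and 0.16 in the same order, so that the TGFb median changed sign. In deposited log2 CPM, 55 of the 78 genes (70.5%) had a positive Pirf difference, beside 68.9% of the 305 lost genes beyond a limit. The Sora difference was positive for 44 (56.4%, beside 68.5%). It was positive for 42 with Nint (53.8%, beside 50.5%) and 40 with TGFb (51.3%, beside 38.7%). An absolute difference under 0.25 was found for 57 genes with Sora, 56 with Nint, 50 with TGFb and 39 with Pirf, and for 19 genes in all 4 comparisons. The Pirf group had the highest of the 5 group means at 72 for 36 of the 78 genes (46.2%), beside 45.6% of the 305. Untreated slices had the lowest for 26 (33.3%), beside 21%. The Pirf shares were thus near those of the other lost genes. The 305 genes beyond a limit had medians of 0.54 for Pirf and -0.18 for TGFb.

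The 2 genes called for Nint are given here although they were chosen after their values were seen. They are 2.56% of the set, near the 3.09% called over all genes tested, so nothing is read from their number. ENSRNOG00000028713 had log2 CPM of 8.18 to 8.83 at time 0 and 5.84 to 6.17 in untreated slices at 72. With TGFb alone the lowest, median and highest values were 6.17, 6.45 and 6.63, and with Nint and TGFb they were 5.89, 6.08 and 6.29. The groups overlapped by 1 library on each side, and the log2 fold change was -0.37 (SE 0.10). Its call was lost in 9 of 17 alternative analyses, 7 of which left out a single library (replicates 1, 2, 4 and 5 of the Nint group, and 2, 3 and 5 with TGFb alone). Against untreated slices at 72, TGFb had a log2 fold change of 0.41 for this gene, which was called (edgeR adjusted p 0.00145). The gene was also called for Sora with TGFb against TGFb alone, at -0.35 (edgeR adjusted p 0.0123). Both drug comparisons use the same TGFb-alone libraries. Relative to untreated slices at 72, the values were 0.05 with Nint and TGFb and 0.06 with Sora and TGFb, neither called. With Pirf and TGFb the value was 0.38, which was called. The level with Nint or Sora was thus lower than with TGFb alone, and was not called lower than in untreated slices. ENSRNOG00000009341 had log2 CPM of 4.06 to 4.59 at time 0 and 1.72 to 2.17 in untreated slices at 72. With TGFb alone the values were 1.91, 2.08 and 2.46, and with Nint and TGFb 2.36, 2.60 and 2.73, a log2 fold change of 0.40. Its groups also overlapped, and its call was lost in 1 of 17 alternatives, a fit of the 12 libraries compared. Against TGFb alone its log2 fold changes were 0.19 for Pirf and 0.12 for Sora, and neither was called. Against untreated slices at 72 it was called with Nint, Pirf and Sora, each with TGFb (0.62, 0.41 and 0.34).

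Comparisons that the rule did not limit to 0.5 were looked at next. The difference between any pair of drugs, or between a drug with TGFb and untreated slices, could reach 1 under the rule. The 5 group means at 72 spanned a median of 0.48 log2 CPM per gene, with a range of 0.15 to 0.98, and the span passed 0.5 for 30 of the 78 genes. With edgeR, Nint and Pirf differed in 26 of the 78 genes, 7 higher and 19 lower with Nint, where 54.6% of all genes tested were called (26.5% higher, 28.2% lower). Sora and Pirf differed in 18 (6 higher, 12 lower with Sora; background 42.1%), and Sora and Nint in 2 (1 higher, 1 lower; background 11%). Of the 26 genes called between Nint and Pirf, 13 differed by 0.5 or more in log2 fold change. Against untreated slices at 72, 28 genes were called with Pirf and TGFb (23 higher, 5 lower; background 52%), 17 with Nint and TGFb (9 higher, 8 lower; background 26.4%) and 19 with Sora and TGFb (15 higher, 4 lower; background 25%). The last of these shares, 24.4%, was close to its background. The others lay below theirs, as the limits of the rule favour. In each of these comparisons the set also had larger standard errors, with a median of 0.16 beside 0.12 over all genes tested. The part of each in the lower shares was not tested.

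The spread between replicates did not enter the choice directly. At time 0 the SD of log2 CPM over the 6 libraries had a median of 0.35 for the 78 genes, 0.45 for the 305 genes beyond a limit and 0.18 for the 10598 genes not lost. Without replicate 3 the median for the 78 genes was 0.32. In untreated slices at 72 the medians were 0.23, 0.37 and 0.14, with TGFb 0.26, 0.47 and 0.15, and with Pirf and TGFb 0.16, 0.29 and 0.10. They were 0.17, 0.35 and 0.11 with Nint and TGFb and 0.25, 0.41 and 0.15 with Sora and TGFb. In each group the set lay between the other 2 classes of genes. A mean over 6 libraries varies more for a gene with a wide spread, so the limits favour genes with a small one. The order of the set and the 305 genes is thus a description, and nothing is read from it. The classes differ in level at 72, with medians of 2.71, 1.37 and 5.06 log2 CPM in untreated slices, and the part of level in the spread was not tested.

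The time-0 libraries did not hold the set at one level. Replicate 6 had the highest value for 35 of the 78 genes (44.9%), beside 19.3% of all 10981 genes at this time-0 level, and lay a median of 0.24 above the group mean. Replicate 3 had the lowest value for 28 (35.9%), beside 21%. Over the 305 lost genes beyond a limit the same libraries stood out, with medians of 0.23 for replicate 6 and -0.26 for replicate 3. Over the 184 genes that rose in culture, replicate 6 lay at -0.24 and replicate 3 at 0.74. The medians over all 10981 genes lay between -0.07 and 0.05. Replicate 3 was thus lower for lost genes and higher for risen genes than the other time-0 libraries, and replicate 6 was the highest for lost genes. At 72 the library furthest from its group mean in the median of the 78 genes was Sora replicate 4, at 0.0912. It had the highest value of its group for 26 of the 78 genes (33.3%), beside 21.3% of all 10981 and 31.8% of the 305.

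**Figure D5:**
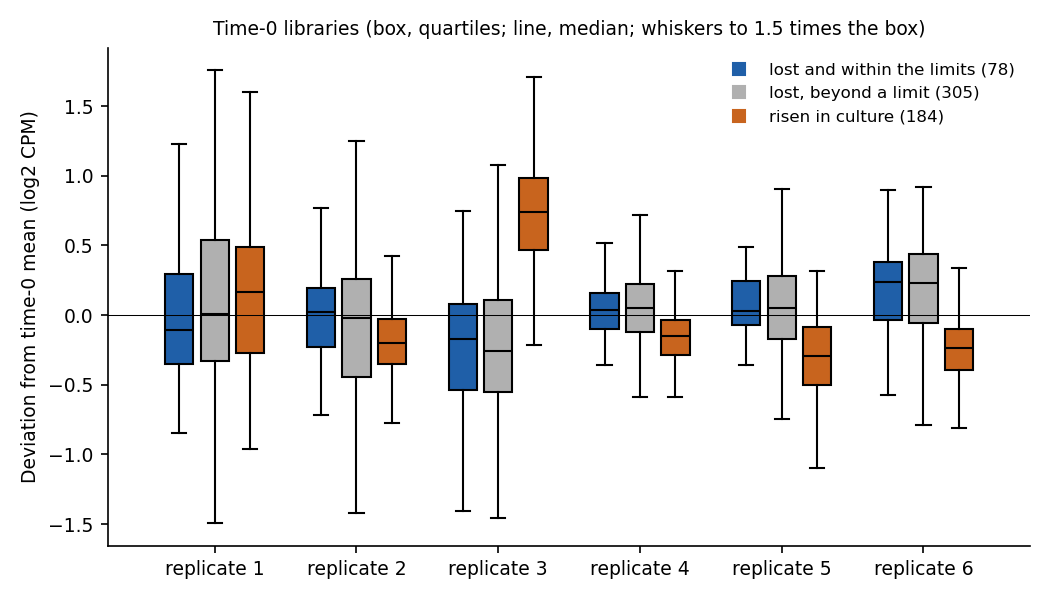
Deviation of each time-0 library from the time-0 mean in log2 CPM, for the 78 genes (blue), the 305 lost genes beyond a limit (grey) and the 184 genes risen in culture (orange); boxes are quartiles, lines medians, and whiskers reach to the last gene within 1.5 box lengths. Replicate 3 has blue and grey medians of -0.17 and -0.26 and an orange median of 0.74, and replicate 6 has 0.24, 0.23 and -0.24.

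None of the 78 genes had a count of 0 in any of the 36 libraries, and 6 had a count under 10 in at least 1 library. The median count over the 30 libraries at 72 ranged from 9 to 2827 per gene, with a median of 180.3 over the set. For 72 of the 78 genes the expected counts were whole, to within 0.001, in every library. For 3 genes they were not whole in 10 or more libraries, and the counts of those 3 are uncertain, since RSEM can divide a read among similar genes.

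The genes nearest to the limits show how the set was bounded. The member nearest to the culture limit had a difference of -2.00003, and the nearest gene outside that met all other conditions had -1.9988. For the time-0 level they were 2.08 and 1.76 log2 CPM. The member nearest to the TGFb limit had a difference of 0.49, and the nearest gene outside had 0.53. For Pirf the values were 0.496 and -0.501, for Nint -0.499 and 0.505, and for Sora 0.46 and 0.50.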

How the data were processed

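Stranded libraries were prepared from ribosome-depleted total RNA of the slices, per the labels' protocols. The tools RSEM and edgeR and the build Rnor_6.0 are named per the submitters' processing notes. Aligner, annotation release and strand setting: not given in the sources used here. Expected counts as deposited by the authors cover 32883 Ensembl genes without scaling, and 8.59% of values were not whole. The deposited log2 CPM values of 14984 protein-coding genes equalled edgeR's (TMM scaling, prior count 0.25) within 5e-14.

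The rule was applied to the deposited log2 CPM values. The members and lists were chosen with earlier results of these data known. Expected counts were rounded and tested in R 4.3.3 with edgeR 4.0.16: filterByExpr (15644 genes), TMM, one quasi-likelihood fit of all 36 libraries with a mean per group, and Benjamini-Hochberg adjustment with calls under 0.05. SE was derived from each fold change and its F statistic, and 95% intervals use the test's degrees of freedom. The fit was tested on simulated data. DESeq2 1.42.0 was an alternative. The rule for named genes gave the highest time-0 mean and the most negative culture difference. No ID could be paired with a symbol, so 31 gene lists by symbol were not run, and no gene sequence is shown.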

Additional observations from a re-analysis of the deposited data

Results flagged for a closer look

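In groups of 6 libraries, the highest and lowest values of 4 named genes and of the summed CPM of the set were compared with the nearest of the other 5, over 30 groups of values. Chance flags about 1 in 20 such groups. ENSRNOG00000026061 with TGFb alone was the 1 case found, with replicate 5 at -2.92 log2 CPM and the other 5 libraries between -1.45 and -0.65. Its raw counts with TGFb alone lay between 3 and 14.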

How the results depend on the processing

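The set held 69 to 85 genes when each of the 36 libraries was left out in turn, of which 66 to 78 were among the 78. With medians in place of means 73 genes were chosen, 55 of them shared with the 78. The number was 84 with a prior count of 2, 91 with DESeq2 size factors and 55 without scaling factors, with 76, 76 and 50 shared. It was 47 with a treatment limit of 0.4, 102 with 0.6, 191 with a culture difference of -1.5 or lower and 14 with -3 or lower.

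All 78 genes were called between time 72 and 0 in each of the alternatives run, and leaving out a library gave 78 in each case. TGFb calls were 7 without a filter on low counts, and 8 to 12 with 1 library left out. Pirf calls were 14 to 21 with 1 library left out. Sora calls were 9 without scaling factors and 7 with DESeq2, and 2 to 8 with 1 library left out (8 without Sora replicate 5, 2 without Sora replicate 3 or TGFb-alone replicate 4). Nint calls were 1 without scaling factors and 1 without the filter, and 1 to 2 with 1 library left out. The cause of these changes was not tested. The Nint call of ENSRNOG00000028713 was lost in 9 of 17 alternatives (adjusted p up to 0.0963, edgeR and DESeq2), and that of ENSRNOG00000009341 in 1 of 17 (0.0536, in a fit of the 12 libraries compared). The log2 fold change in culture was -3.14 to -2.99 for ENSRNOG00000021318 and -6.16 to -5.66 for ENSRNOG00000026061 with 1 library left out.

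The main fit did not pair libraries by replicate number. Same-numbered libraries of compared groups had correlations of deviations from -0.31 to 0.56, over 0.1 in 10 of 30 pairs. The same number gave the highest correlation in 7 of the 30. Such correlations cannot show whether same-numbered libraries shared a source. With the replicate block, 78, 13, 23, 2 and 5 genes of the set were called for culture, TGFb, Pirf, Nint and Sora. Of the 78 genes, 71 had all 4 treatment intervals within ±1, and whether depth set which genes did was not tested.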
